A study of Mus musculus with 6 samples.

Results

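The RNA levels of SR proteins, hnRNP proteins, their tissue-biased partners and the kinases that phosphorylate SR proteins were followed in HL-1 cells given an HSPA1A overexpression plasmid. Members were taken by gene symbol from the protein-coding genes of the deposited table (Srsf, Tra2, Hnrnp, Ptbp, Rbfox, Mbnl, Celf, Khdrbs, Rbm20, Qk, Srpk and Clk), which gave 59 of the 22913 genes listed. The HL-1 line comes from atrial muscle of the mouse heart. In 3 libraries the cells carried a plasmid for HSPA1A, a stress-inducible HSP70 chaperone, named human in the labels, and in 3 Ctrl libraries a control plasmid. All cells were transfected with a lipid reagent and harvested 48 h later, and polyadenylated RNA was sequenced as paired ends from a stranded kit. Whether the replicates were separate cultures is not stated, so p-values reflect only how far these libraries differ from each other, and that spread may be technical. The series title names alternative splicing in heart muscle cells, and the comparison here asks whether the RNA of the splicing regulators themselves differed between the plasmids.

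SR proteins bind exonic enhancers through RNA recognition motifs and recruit the spliceosome through domains rich in arginine and serine. Many hnRNP proteins bind nearby sequences and oppose them, and the balance between both families is a classical determinant of exon choice. Srpk kinases phosphorylate SR proteins in the cytoplasm and Clk kinases in the nucleus. In heart muscle, Rbfox, Mbnl, Celf and Rbm20 shape the splicing programs of maturation, and Rbm20 acts on titin. Heat shock is known to alter SR protein phosphorylation and the splicing of Clk1 RNA. Many of these genes also regulate their own messages through exons that trigger nonsense-mediated decay.

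Such exons are shown for the kinases and for Tra2b, because the gene counts used here add all spliced forms and the levels below cannot separate them. In GENCODE M21, the mouse annotation on GRCm38, an exon of Clk1 at chr1:58420121-58420211 (minus strand), of Clk2 at chr3:89169618-89169702 (plus strand) and of Clk4 at chr11:51273078-51273168 (plus strand) is skipped in an annotated decay transcript. Their lengths of 91, 85 and 91 bases each leave a remainder of 1 on division by 3, so skipping shifts the reading frame. The Clk1 and Clk4 exons are identical at 85 of 91 bases (93.4%), and capitals mark the bases at which these paralogs differ. The Tra2b exon works the other way: its inclusion brings a stop codon, shown in capitals at the end of the 81 coding bases it adds (chr16:22259181-22259261, minus strand), and it lies in all 3 annotated decay transcripts of the gene. All are given 5′ to 3′ from the GENCODE transcripts.
Clk1 exon: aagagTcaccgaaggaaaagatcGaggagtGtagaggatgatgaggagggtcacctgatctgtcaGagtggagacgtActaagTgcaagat
Clk4 exon: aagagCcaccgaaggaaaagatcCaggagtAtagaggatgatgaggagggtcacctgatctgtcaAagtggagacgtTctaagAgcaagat
Clk2 exon: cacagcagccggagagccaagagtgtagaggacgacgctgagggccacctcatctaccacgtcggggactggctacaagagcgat
Tra2b exon: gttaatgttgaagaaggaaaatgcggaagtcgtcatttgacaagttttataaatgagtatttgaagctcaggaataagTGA

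Decay transcripts were annotated for 36 of the 53 members with enough reads to be tested (67.9%), and for 29.2% of the 11717 tested protein-coding genes. Among SR proteins and Tra2 they were annotated for 11 of 12 genes (91.7%), and among the tested kinases for 6 of 6. A retained intron transcript was annotated for 42 members (79.2%), against 59.4% of all tested protein-coding genes. The members also had a median of 10 annotated transcripts, against 5 over those genes. These are features of the annotation, not measurements of these cells.

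Library totals lay between 23849656 and 26897086 counts. HSPA1A replicate 2 stood apart from HSPA1A replicates 1 and 3 on the first principal component, which held 34.3% of the variance of all tested genes: scores were -15.9, 15.1 and -18.3 in HSPA1A replicates 1, 2 and 3, and 4.33 to 8.27 in Ctrl libraries. Mouse Hspa1a had 17, 20 and 11 reads in HSPA1A libraries and 10, 17 and 11 in Ctrl libraries. Reads of a human transcript enter these counts only where they match the mouse gene, so the counts do not measure the plasmid. Expression of HSPA1A from the plasmid was therefore not checked here, and the libraries are compared as labelled. Yam1, a noncoding RNA, took 2.70%, 1.58% and 2.53% of the counts in HSPA1A libraries and 1.86%, 1.18% and 1.23% in Ctrl libraries. Of the atrial markers, Tnnt2 had 23.7 to 41.0 FPKM (fragments scaled by gene length and library size) in HSPA1A libraries and 27.0 to 32.7 in Ctrl libraries, and Gja1, Gata4 and Nkx2-5 were also above 1 FPKM. Actc1, Tnni3, Tbx5 and Ryr2 were at or near 0, and Myl4 and Gja5 were low. Of 14 atrial markers listed, 4 had a mean above 1 FPKM, and Nppa, Sln, Myl7 and Myh6 were not analysed here. The 7 fibroblast markers summed to 132 to 162 FPKM in HSPA1A libraries and 152 to 155 FPKM in Ctrl libraries, mostly Col1a2 and Col3a1. Of these 7, 4 had a mean above 1 FPKM, while Pdgfra, Postn and Thy1 were at or below 0.5 FPKM in every library. Leukocyte markers summed to 10.5 to 17.1 FPKM in HSPA1A libraries and 11.6 to 14.4 FPKM in Ctrl libraries from Cd14 and Cd68, with Ptprc at or near 0. Smooth muscle markers summed to 20.2 to 27.4 FPKM in HSPA1A libraries and 23.3 to 26.8 FPKM in Ctrl libraries, almost all Acta2, and endothelial markers stayed at or below 0.15 FPKM. Their part in the results was not tested, and in bulk RNA fewer cells of a type and less RNA per cell cannot be told apart.

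On the FPKM scale, which allows levels of different genes to be compared, hnRNP genes led the set. Hnrnpa1, a classical splicing repressor that binds exonic silencers, had the highest mean, 420 ± 20.5 FPKM in HSPA1A libraries and 455 ± 8.29 FPKM in Ctrl libraries (SD, n = 3 each). Hnrnpab followed with 262 ± 7.85 FPKM in HSPA1A libraries and 270 ± 1.36 FPKM in Ctrl libraries, and Hnrnpa3 with 186 ± 9.69 FPKM in HSPA1A libraries and 201 ± 4.34 FPKM in Ctrl libraries. The most abundant SR proteins were Srsf2, at 118 ± 1.91 FPKM in HSPA1A libraries and 125 ± 1.15 FPKM in Ctrl libraries, and Srsf5, at 98.1 ± 7.01 FPKM in HSPA1A libraries and 100.5 ± 1.43 FPKM in Ctrl libraries. Ptbp1, the repressor of neuronal and muscle exons, lay between them with 106 ± 4.35 FPKM in HSPA1A libraries and 114 ± 3.22 FPKM in Ctrl libraries.

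Kinases and tissue-biased regulators were expressed at lower levels. Clk1 had 24.8 ± 0.575 FPKM in HSPA1A libraries and 23.0 ± 0.217 FPKM in Ctrl libraries, the highest mean among the kinases. Among the tissue-biased genes Mbnl2 led with 49.1 ± 2.51 FPKM in HSPA1A libraries and 49.1 ± 1.10 FPKM in Ctrl libraries. Rbm20, the heart regulator of titin splicing, was measured at 5.04 ± 0.568 FPKM in HSPA1A libraries and 5.53 ± 0.0808 FPKM in Ctrl libraries. Hnrnpr stood at 4.75 ± 0.392 FPKM in HSPA1A libraries and 4.50 ± 0.0800 FPKM in Ctrl libraries. Its counts were nevertheless well above those of many members. If FPKM was scaled by the totals of the listed counts, its count and FPKM together imply a length of 23092 bases. All its annotated exons joined have 22199 bases. That assumption was not checked, and Hnrnpa0, with 1 annotated transcript, gave 2879 bases against 2678 annotated, so implied lengths are approximate. For the 52 members where such a length could be worked out, the median was 0.66 of the joined exons. Orders of genes therefore depend on the lengths used, and not only where FPKM values are close. Srpk1 had 11387 reads over 12376 joined exon bases and Clk1 7071 over 8132, so Srpk1 ranked above Clk1 by that length. Rbfox2 had 47117 reads over 8140 bases and Mbnl2 36787 over 11993, so Rbfox2 ranked above Mbnl2. The leading places of Clk1 and Mbnl2 hold for the deposited FPKM.

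**Figure D1:**
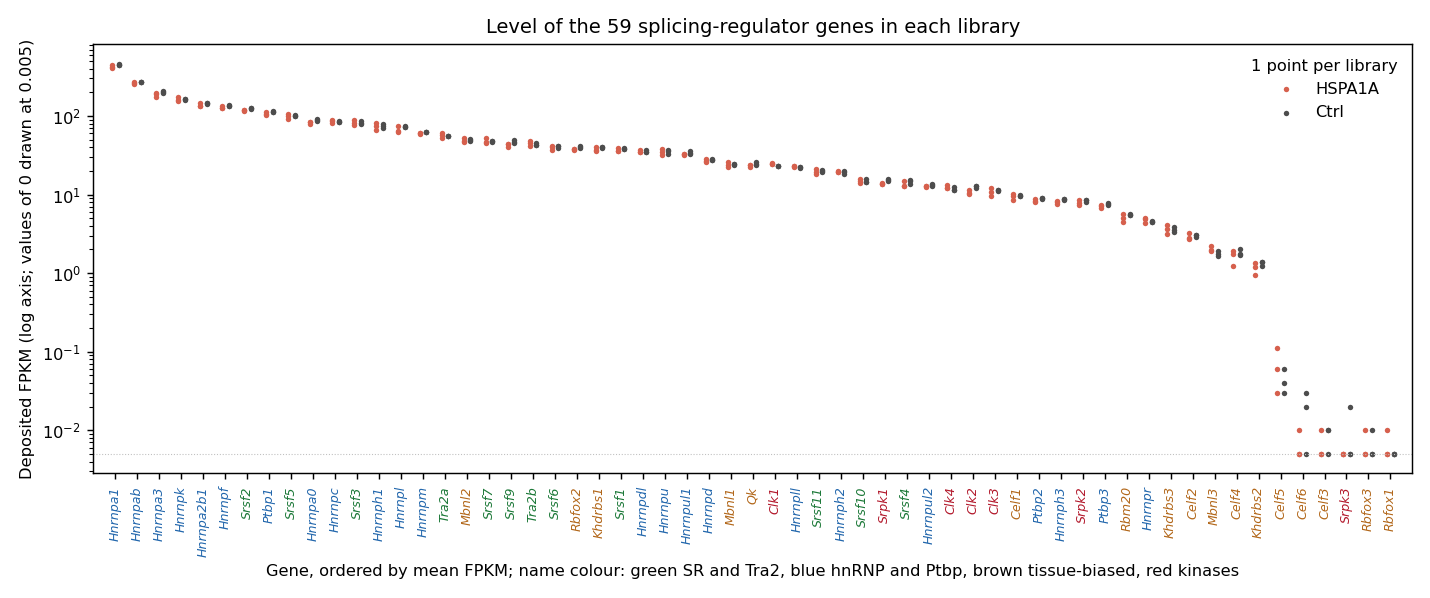
Deposited FPKM of the 59 members on a log axis, 1 point per library, HSPA1A libraries left of Ctrl libraries, with genes ordered by mean FPKM, name colours giving the class and values of 0 drawn on the dotted line. Hnrnpa1 is highest at 420 FPKM in HSPA1A libraries and 455 FPKM in Ctrl libraries, and the 6 untested members lie far below all others at the right.

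The other 6 members were not tested because they had almost no reads. Celf5 had 4, 19 and 9 reads in HSPA1A libraries and 7, 9 and 5 in Ctrl libraries. Celf6 had 6 reads over all 6 libraries, Celf3 had 3, Rbfox3 had 2, and Rbfox1 and Srpk3 had 1 each. Rbfox3 and Celf3 are known mainly from neurons, Rbfox1 from brain and muscle, and Srpk3 from striated muscle. Rbm24, which the rule also names, was not analysed here.

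No splicing regulator passed the test. With edgeR's quasi-likelihood test and Benjamini-Hochberg adjustment over all 12827 tested genes at a threshold of 0.05, 0 of 53 members were called higher or lower in HSPA1A libraries, where 0.179% of all tested genes were called. DESeq2 also called 0 members, with 3 at an unadjusted p under 0.05, where it called 0.499% of all tested genes. The smallest adjusted p among the members was 0.470, for Clk1. At an unadjusted p under 0.05 there were 4 members, Clk1, Clk4 and Mbnl3 with higher and Clk2 with lower values in HSPA1A libraries, or 4 of 53, where the share over all tested genes was 8.59%. In that background 4.33% were higher and 4.26% lower, and the members' count is not above it.

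The intervals show how large a difference these libraries leave room for. Log2 fold changes, HSPA1A over Ctrl, ran from -0.19 for Clk2 to 0.26 for Mbnl3, with 27 positive and 26 negative values. Their median was 0.001, beside 0.003 over all tested genes. The 95% interval of the fold change lay within 1.2-fold either way for 45 of the 53 members, within 1.25-fold for 48, within 1.4-fold for 52 and within 1.5-fold for 53. The median standard error of the log2 fold change was 0.059 for the members and 0.084 over all tested genes. The interval limits farthest from 0 were -0.45 for Celf4 and 0.49 for Mbnl3, both genes with few reads.

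**Figure D2:**
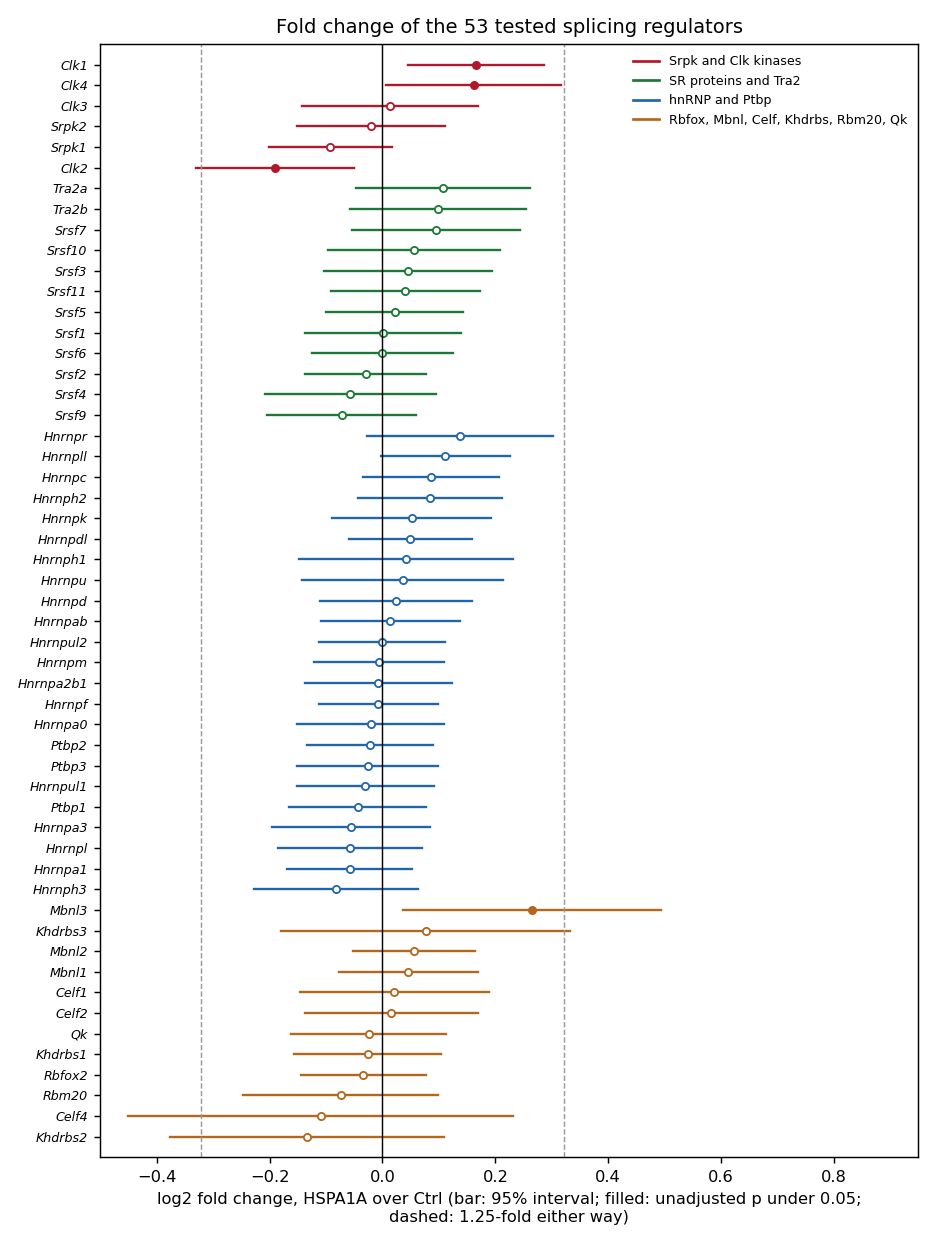
Log2 fold change, HSPA1A over Ctrl, of the 53 tested members by class, with 95% intervals as bars and filled points where the unadjusted p is under 0.05. Clk1, Clk4 and Mbnl3 lie right of 0 and Clk2 left of it, and 48 of the 53 intervals stay inside the dashed lines at 1.25-fold.

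The Clk kinases held 3 of the 4 members at an unadjusted p under 0.05. Clk1 (chr1:58410189-58424066, minus strand) had 48.9, 47.0 and 51.3 CPM (read counts scaled to library size by the TMM method) in HSPA1A libraries and 44.3, 42.9 and 44.0 CPM in Ctrl libraries. All 3 HSPA1A libraries lay above all 3 Ctrl libraries. The log2 fold change was 0.17 ± 0.055 (SE), with an edgeR adjusted p of 0.470. Clk2 (chr3:89164795-89176921, plus strand) ran the other way, with 24.9, 26.4 and 24.7 CPM in HSPA1A libraries and 29.7, 27.7 and 29.3 CPM in Ctrl libraries. Here too the groups did not overlap, and the log2 fold change was -0.19 ± 0.063 (SE) with an edgeR adjusted p of 0.474. Both kinases phosphorylate the arginine-serine domains of SR proteins.

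Clk4 (chr11:51261730-51281766, plus strand), the closest paralog of Clk1, had 30.6, 26.9 and 28.3 CPM in HSPA1A libraries and 25.2, 24.5 and 26.9 CPM in Ctrl libraries. HSPA1A replicate 2 and Ctrl replicate 3 were almost level, so the groups were barely apart, and the log2 fold change was 0.16 ± 0.070 (SE) with an edgeR adjusted p of 0.567. Clk3 had 30.4, 32.0 and 27.0 CPM in HSPA1A libraries, on both sides of the 29.1, 29.6 and 29.8 CPM in Ctrl libraries, with a log2 fold change of 0.01 and a 95% interval from -0.14 to 0.17. The counting of reads that match both Clk1 and Clk4 is not described in the sources used, so the values of this pair are uncertain to that extent. Clk1 and Clk2 overlap no other annotated gene, and Clk4 overlaps BC049762 and Gm25082, which had 6 and 4 reads in all. Over the set, 28 of the 59 members overlap a gene on the opposite strand, Clk3 among them. The share over all genes was not worked out. Without the strand setting of the counter such reads cannot be told apart. The largest totals of an opposite gene were 7253 reads for Srsf2, which itself had 40096, and 7000 for Srpk2, which had 8699. For Clk3, which had 4533 reads, the opposite gene Edc3 had 2400, so Clk3 values are uncertain to that extent.

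Ratios within a library do not depend on the scaling between libraries. Clk1 counts divided by Clk2 counts gave 1.97, 1.78 and 2.08 in HSPA1A libraries and 1.49, 1.55 and 1.50 in Ctrl libraries, so the mean ratio was 1.94 ± 0.152 in HSPA1A libraries and 1.51 ± 0.0322 in Ctrl libraries (SD, n = 3 each). Clk4 over Clk2 gave 1.23, 1.02 and 1.15 in HSPA1A libraries and 0.850, 0.884 and 0.916 in Ctrl libraries. For both ratios the HSPA1A mean was 1.28 times the Ctrl mean, and without HSPA1A replicate 2 it was 1.34 and 1.35 times. Clk1 over Clk4 averaged 1.72 ± 0.109 in HSPA1A libraries and 1.72 ± 0.0671 in Ctrl libraries, and Clk1 over Clk3 averaged 1.66 ± 0.219 in HSPA1A libraries and 1.48 ± 0.0360 in Ctrl libraries. These 4 ratios were picked after the single values were seen and are given without a test.

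**Figure D3:**
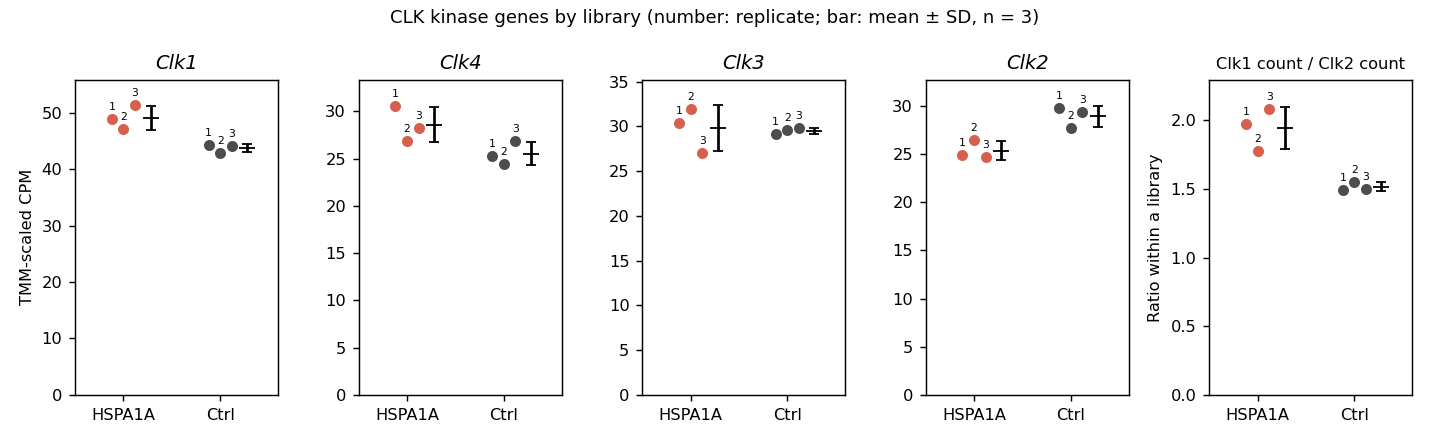
TMM-scaled CPM of Clk1, Clk4, Clk3 and Clk2, and the Clk1 to Clk2 count ratio, 1 point per library with its replicate number, and the group mean ± SD beside the points. For Clk1 the HSPA1A points (47.0 to 51.3 CPM) lie above the Ctrl points (42.9 to 44.3 CPM), for Clk2 below them, and for Clk3 the groups overlap.

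The cytoplasmic SR kinases gave smaller differences. Srpk1 had 73.8, 69.9 and 72.9 CPM in HSPA1A libraries and 76.4, 78.0 and 76.6 CPM in Ctrl libraries. The groups did not overlap, but the log2 fold change was only -0.09 ± 0.049 (SE), with an edgeR adjusted p of 0.635. Srpk2 had 53.8, 59.4 and 56.2 CPM in HSPA1A libraries and 59.2, 54.3 and 58.4 CPM in Ctrl libraries, which overlapped throughout. The 6 tested kinases together summed to 262 ± 1.07 CPM in HSPA1A libraries and 262 ± 4.39 CPM in Ctrl libraries (SD, n = 3 each), so the totals were level within their spread while Clk1 and Clk4 values were higher and Clk2 and Srpk1 values lower.

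Among SR proteins and Tra2, 0 of 12 genes passed the test, 0 were at an unadjusted p under 0.05 and in none were the groups apart. The smallest p belonged to Tra2a, whose protein binds GAA-rich enhancers, with 118, 103 and 126 CPM in HSPA1A libraries and 108, 107 and 107 CPM in Ctrl libraries. HSPA1A replicates 1 and 3 lay above the Ctrl libraries and HSPA1A replicate 2 below them, and the log2 fold change was 0.11 ± 0.070 (SE; edgeR adjusted p = 0.707). Tra2b, its paralog, showed the same order with 178, 157 and 191 CPM in HSPA1A libraries and 163, 168 and 160 CPM in Ctrl libraries, and a log2 fold change of 0.10 ± 0.070 (SE; edgeR adjusted p = 0.735). Srsf7, an SR protein with a zinc knuckle, had 115, 115 and 135 CPM in HSPA1A libraries and 115, 113 and 114 CPM in Ctrl libraries, so HSPA1A replicate 3 alone was high.

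The abundant SR proteins were nearly level. Srsf2, which binds enhancers in many constitutive and alternative exons, had 259, 253 and 268 CPM in HSPA1A libraries and 266, 264 and 266 CPM in Ctrl libraries, a log2 fold change of -0.03 with a 95% interval from -0.14 to 0.08. Srsf5 had 168, 185 and 183 CPM in HSPA1A libraries and 181, 174 and 174 CPM in Ctrl libraries, a log2 fold change of 0.02 with a 95% interval from -0.10 to 0.14. Srsf1, the founding SR protein, had 220, 210 and 246 CPM in HSPA1A libraries and 226, 222 and 227 CPM in Ctrl libraries. The HSPA1A values bracketed the Ctrl values for Srsf1 and Srsf2. Srsf12 and other Srsf genes outside the 10 found in the table were not analysed here.

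In the hnRNP and Ptbp class, 0 of 23 genes passed the test, 0 were at an unadjusted p under 0.05, and 10 log2 fold changes were positive and 13 negative. Hnrnpll, which represses exons of the Ptprc gene in lymphocytes, had the smallest p, with 77.1, 76.6 and 81.1 CPM in HSPA1A libraries and 74.3, 70.3 and 72.8 CPM in Ctrl libraries. All HSPA1A libraries lay above all Ctrl libraries, with a log2 fold change of 0.11 ± 0.052 (SE; edgeR adjusted p = 0.595). Hnrnpc, which binds runs of uridine in nascent RNA, had 263, 264 and 289 CPM in HSPA1A libraries and 262, 253 and 254 CPM in Ctrl libraries. The groups were apart by little, and the log2 fold change was 0.09 ± 0.054 (SE; edgeR adjusted p = 0.700).

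Hnrnpr (chr4:136310942-136359447, plus strand) had 117, 98.7 and 122 CPM in HSPA1A libraries and 105, 99.5 and 102 CPM in Ctrl libraries. HSPA1A replicate 2 was the lowest of the 6 libraries and HSPA1A replicates 1 and 3 the highest, with a log2 fold change of 0.14 ± 0.075 (SE; edgeR adjusted p = 0.640). Hnrnpa1 had 860, 904 and 895 CPM in HSPA1A libraries and 924, 905 and 940 CPM in Ctrl libraries. HSPA1A replicate 2 and Ctrl replicate 2 were almost level, so the groups were barely apart. Its log2 fold change was -0.06 ± 0.050 (SE; edgeR adjusted p = 0.792). Hnrnpab, which followed Hnrnpa1 by FPKM, had 825, 749 and 831 CPM in HSPA1A libraries and 799, 791 and 792 CPM in Ctrl libraries. For Hnrnpab, HSPA1A replicate 2 was the lowest. In CPM, Hnrnpa3 was above both genes, with means of 1068 CPM in HSPA1A libraries and 1109 CPM in Ctrl libraries. Abundant hnRNP genes have processed pseudogenes, so their counts carry the same uncertainty about reads with several matches.

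Counted over all classes, 8 of 53 members had groups that did not overlap in TMM-scaled CPM, where the share over all tested genes was 14.5%. Of these, 5 were higher in HSPA1A libraries (Clk1, Clk4, Mbnl3, Hnrnpll and Hnrnpc) and 3 lower (Clk2, Srpk1 and Hnrnpa1), where 7.3% and 7.17% of all tested genes were. The members' count was near the background.

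Among the tissue-biased regulators, 0 of 12 tested genes passed the test and 1, Mbnl3, was at an unadjusted p under 0.05. Mbnl3 (X chromosome, 51117269 to 51206532, minus strand), the least abundant muscleblind paralog, had 12.8, 10.7 and 11.6 CPM in HSPA1A libraries and 9.65, 10.5 and 9.01 CPM in Ctrl libraries. The groups did not overlap, and the log2 fold change was 0.26 ± 0.103 (SE; edgeR adjusted p = 0.528), the highest of the 53. Mbnl2 had 238, 251 and 248 CPM in HSPA1A libraries and 235, 240 and 234 CPM in Ctrl libraries, a log2 fold change of 0.06 ± 0.049 (SE). That sign turned on the FPKM scale, where the value was -0.002. Mbnl1, the paralog best known from myotonic dystrophy, had 145, 160 and 154 CPM in HSPA1A libraries and 152, 143 and 150 CPM in Ctrl libraries, which overlapped.

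Khdrbs2, a relative of the signalling adaptor Sam68, had 10.9, 14.6 and 13.4 CPM in HSPA1A libraries and 13.3, 14.8 and 14.8 CPM in Ctrl libraries, a log2 fold change of -0.13 ± 0.110 (SE; edgeR adjusted p = 0.778). It shares its locus with annotated genes of the same strand that had up to 2242 reads, so its counts are uncertain. Rbfox2, which binds GCAUG and was almost the sole Rbfox paralog, had 314, 299 and 302 CPM in HSPA1A libraries and 322, 305 and 310 CPM in Ctrl libraries, a log2 fold change of -0.03 with a 95% interval from -0.15 to 0.08. Rbm20 had 41.5, 35.0 and 33.4 CPM in HSPA1A libraries and 38.4, 38.3 and 38.9 CPM in Ctrl libraries. Its HSPA1A values lay on both sides of the Ctrl values, and its 95% interval ran from -0.25 to 0.10. Qk, which acts in muscle and glial splicing, had 245, 249 and 265 CPM in HSPA1A libraries and 278, 243 and 252 CPM in Ctrl libraries, which overlapped.

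The spread among HSPA1A libraries was the largest pattern in the set. HSPA1A replicate 2 was the lowest of the 6 libraries for 23 of 53 members (43.4%), while it was lowest for 21.0% of all tested genes. HSPA1A replicate 3 was the highest for 22 members (41.5%), against 21.9% of all tested genes. The median member lay 0.01, -0.05 and 0.05 from the Ctrl mean on the log2 scale in HSPA1A replicates 1, 2 and 3, while the median over all tested genes lay between 0.003 and 0.005. The first principal component of the members alone held 46.7% of their variance and placed HSPA1A replicates 1 and 3 on one side of the Ctrl libraries and HSPA1A replicate 2 on the other.

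**Figure D4:**
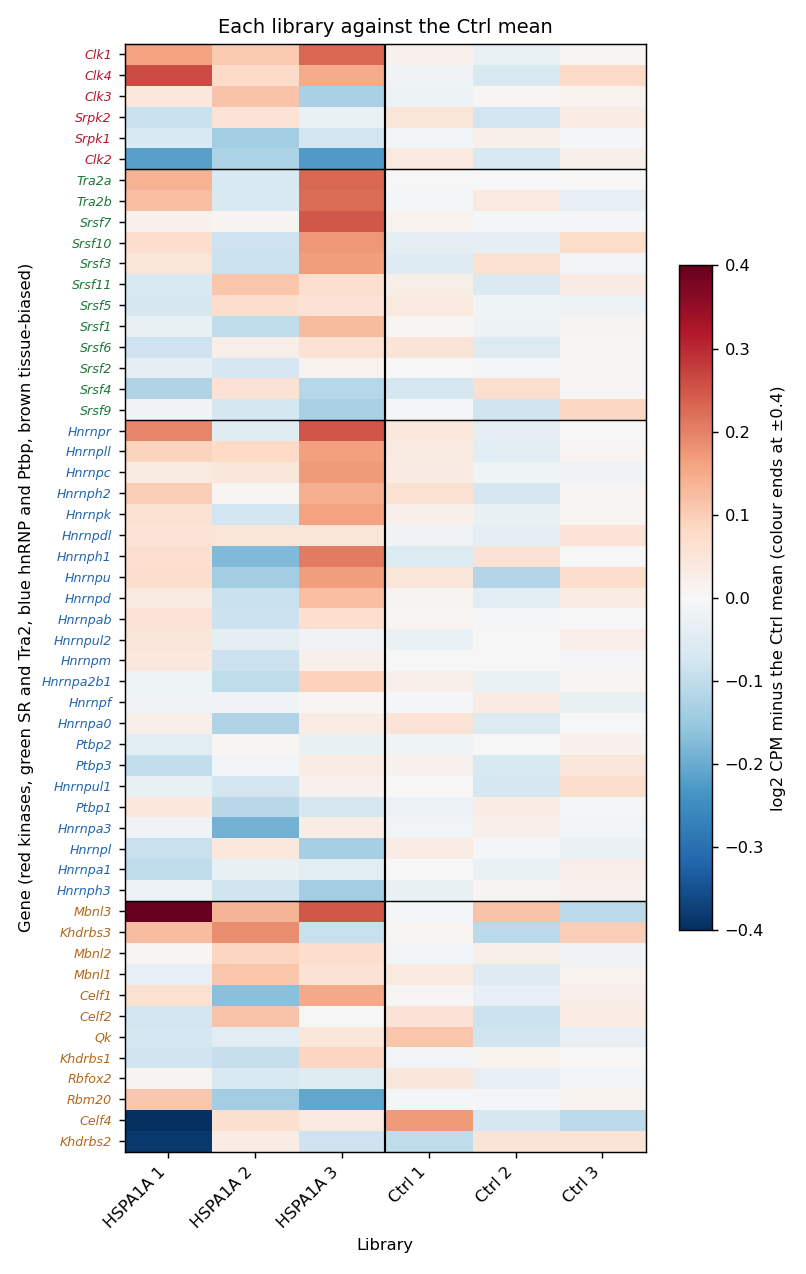
Log2 difference of each tested member from its Ctrl mean in each library, HSPA1A libraries left of Ctrl libraries, with colour giving the size and sign. The column of HSPA1A replicate 2 is mostly below 0 and that of HSPA1A replicate 3 mostly above, with medians of -0.05 and 0.05.

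Without HSPA1A replicate 2, 5 of 53 members were called by the same edgeR test, 4 higher and 1 lower, where 10.2% of 12955 tested genes were called, 5.27% higher and 4.94% lower. Hnrnpr was higher in the 2 remaining HSPA1A libraries (log2 fold change 0.23, edgeR adjusted p = 0.00657), as were Tra2a (0.19, adjusted p = 0.0182), Tra2b (0.17, adjusted p = 0.0275) and Clk1 (0.20, adjusted p = 0.0276). Clk2 was lower, with a log2 fold change of -0.22 and an edgeR adjusted p of 0.0391. Mbnl3 (0.33, adjusted p = 0.0528) and Clk4 (0.21, adjusted p = 0.0656) missed the threshold in that fit. At an unadjusted p under 0.05 there were 19 members, where the share over all tested genes was 24.8%. Leaving out any other library gave 0 called members. All 5 calls therefore rest on leaving out HSPA1A replicate 2. With every library kept, the edgeR adjusted p was 0.470 for Clk1 and 0.474 for Clk2. Hnrnpr, Tra2a and Tra2b were low in the library left out, while Clk1 and Clk2 had the same direction in all 3 HSPA1A libraries.

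Within the small families a single paralog usually carried most of the FPKM, and the shares differed little between the plasmids. Rbfox2 made up 99.98% of the Rbfox total in HSPA1A libraries and 99.99% in Ctrl libraries. Ptbp1 made up 87.2 ± 0.880% in HSPA1A libraries and 87.4 ± 0.379% in Ctrl libraries, with Ptbp3 the least. By annotated exon length the order of the minor paralogs turned, with Ptbp3 at 7.75% and Ptbp2 at 5.05% over the 6 libraries. Khdrbs1, the gene of Sam68, made up 88.6 ± 1.44% in HSPA1A libraries and 89.0 ± 0.568% in Ctrl libraries, and Khdrbs2 the least. All SDs are over n = 3 libraries.

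Celf1, a regulator of developmental heart splicing, made up 67.3 ± 4.53% of the Celf total in HSPA1A libraries and 66.6 ± 1.33% in Ctrl libraries. Mbnl2 made up 65.4 ± 0.284% of the Mbnl total in HSPA1A libraries and 65.5 ± 0.893% in Ctrl libraries, and Mbnl3 2.73 ± 0.347% in HSPA1A libraries and 2.35 ± 0.174% in Ctrl libraries. Srpk1 made up 63.5 ± 1.79% of the Srpk total in HSPA1A libraries and 64.6 ± 1.36% in Ctrl libraries. All of these shares overlapped between the groups. Tra2a and Tra2b were near equal, with Tra2a at 56.1 ± 0.149% in HSPA1A libraries and 56.0 ± 0.667% in Ctrl libraries. When counts were divided by all annotated exons instead, Tra2a averaged 46.7% over the 6 libraries, so the order of this pair depends on the gene length used.

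The Clk family was the exception, with shares of Clk1 and Clk2 that did not overlap between the groups. Those of Clk3 and Clk4 overlapped. Clk1 took 41.4%, 40.7% and 44.3% of the Clk FPKM in HSPA1A libraries and 39.5%, 39.5% and 38.8% in Ctrl libraries. Clk2 took 17.5%, 19.1% and 17.7% in HSPA1A libraries and 22.1%, 21.2% and 21.5% in Ctrl libraries. Clk4 took 22.55%, 20.31% and 21.26% in HSPA1A libraries and 19.64%, 19.64% and 20.67% in Ctrl libraries. Clk3, the least abundant over the 6 libraries by either length, took 18.4 ± 1.59% of the FPKM in HSPA1A libraries and 19.1 ± 0.477% in Ctrl libraries. By annotated exon length Clk1 averaged 30.0%, Clk2 27.0%, Clk4 24.5% and Clk3 18.5% over the 6 libraries. These shares restate the count differences of Clk1 and Clk2 above, are parts of the same total and were not tested. How often shares fail to overlap in other gene families was not worked out.

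**Figure D5:**
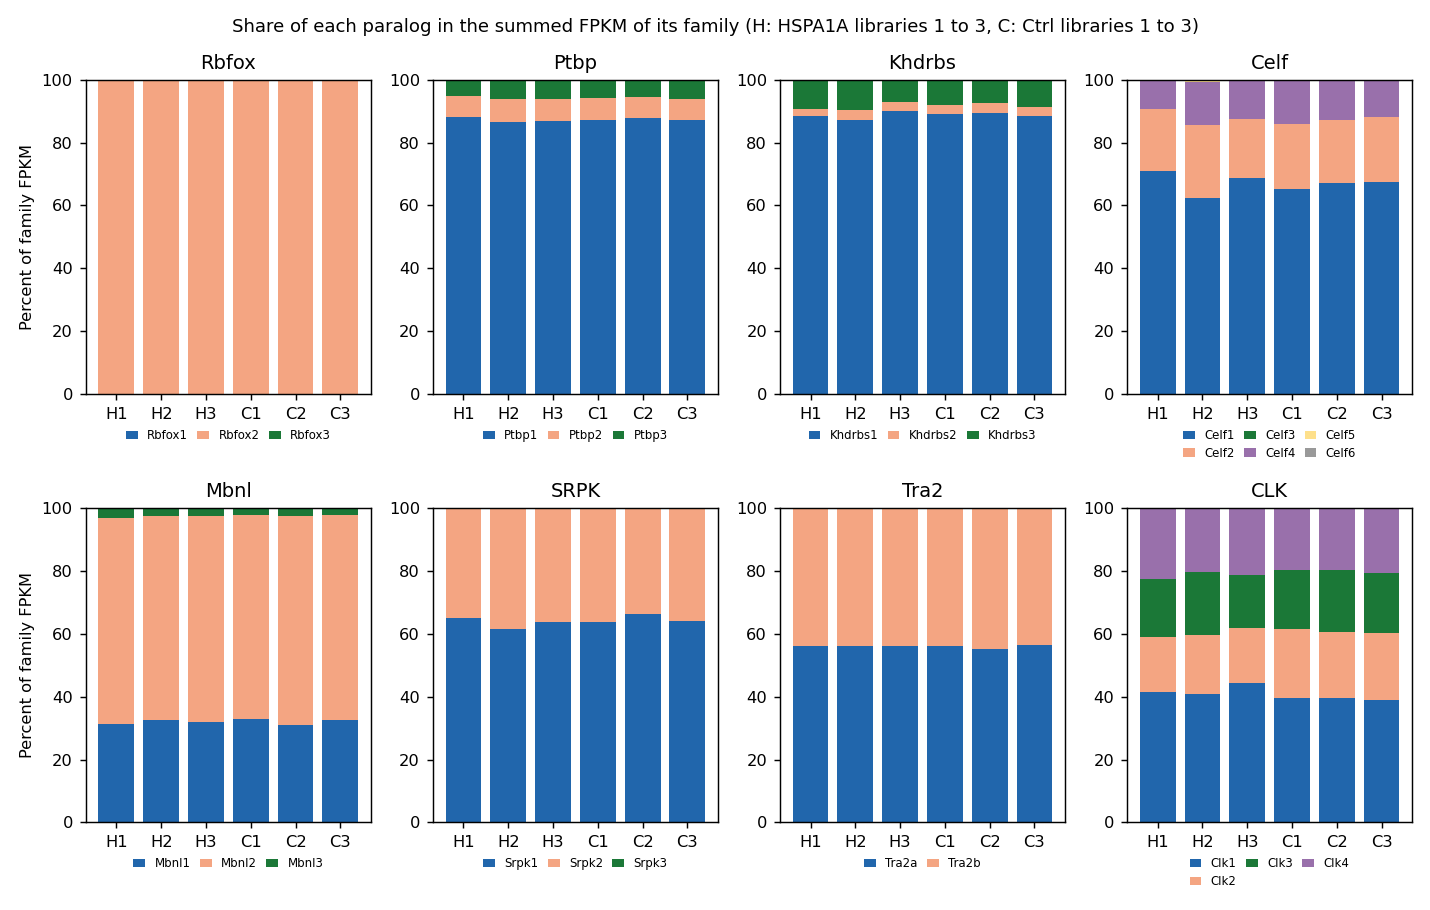
Share of each paralog in the summed FPKM of its family, in percent, with 1 bar per library and HSPA1A libraries left of Ctrl libraries. A single paralog leads in the Rbfox, Ptbp and Khdrbs families, and in the Clk family Clk1 is at 40.7% or more in HSPA1A libraries and at 39.5% or less in Ctrl libraries.

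Summed over whole classes, the reading depended on the scale. The 23 hnRNP and Ptbp genes summed to 1984 ± 29.3 FPKM in HSPA1A libraries and 2080 ± 14.0 FPKM in Ctrl libraries (SD, n = 3 each), groups that did not overlap. On the TMM scale the same genes summed to 7315 ± 349 CPM in HSPA1A libraries and 7338 ± 56.5 CPM in Ctrl libraries, which overlapped. Over 4440 genes with at least 500 reads and 10 FPKM in every library, the deposited FPKM relative to TMM-scaled CPM was lower in HSPA1A libraries than in Ctrl libraries by a log2 difference of -0.06. On log2(FPKM + 1) the median of all tested genes was -0.04 and that of the members -0.05, with 42 of 53 members negative, so most of the members' shift on that scale was shared by all genes. As a share of all counts the members took 1.05 ± 0.0266% in HSPA1A libraries and 1.07 ± 0.00513% in Ctrl libraries.

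All 68 core spliceosome genes on a hand-written list were tested and 0 were called, with 8 higher and 1 lower in HSPA1A libraries at an unadjusted p under 0.05, where 4.33% of all tested genes were higher and 4.26% lower. Their median log2 fold change was 0.04, with 46 of 68 positive, beside 0.003 over all tested genes. Snrnp27, a protein of the tri-snRNP, averaged 91.6 ± 6.15 CPM in HSPA1A libraries and 80.1 ± 2.03 CPM in Ctrl libraries, a log2 fold change of 0.19 (edgeR adjusted p = 0.434). Sf3b6, the branch point protein of the U2 snRNP, averaged 124 ± 9.98 CPM in HSPA1A libraries and 108 ± 2.27 CPM in Ctrl libraries (0.19; edgeR adjusted p = 0.477), and Snrnp25 of the minor spliceosome 22.5 ± 1.71 CPM in HSPA1A libraries and 19.3 ± 0.620 CPM in Ctrl libraries (0.22; edgeR adjusted p = 0.482). Without HSPA1A replicate 2, 11 of 68 core genes were called higher and 0 lower, where 5.27% of all tested genes were called higher and 4.94% lower.

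Of 72 further splicing regulators listed, 62 were tested and 0 were called, with 5 higher and 4 lower at an unadjusted p under 0.05, against the same background of 4.33% and 4.26%, and a median log2 fold change of 0.001. Pcbp3, a poly(C) binding protein, had the smallest p, with a log2 fold change of -0.47 and an edgeR adjusted p of 0.342. Fubp1, which binds single-stranded DNA upstream of Myc, and Pnn, a nuclear speckle protein, had log2 fold changes of 0.21 and 0.24. Without HSPA1A replicate 2, 6 of the 62 genes were called higher and 2 lower, against 5.27% and 4.94% of all tested genes.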

How the data were processed

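Per the labels, polyadenylated RNA of HL-1 cells was sequenced in 3 HSPA1A and 3 Ctrl libraries. Reads were handled with bcl2fastq, TopHat2 and edgeR on GRCm38, per the submitters' processing notes, which give no versions or roles. No source used names the counter, its strand setting or the treatment of reads with several matches. The authors deposited whole read counts per gene (22913 genes) and FPKM (22833 genes), which they rounded to 2 decimals. 0 sample columns were left unused.

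Counts were normalised by TMM in edgeR 4.0.16 (R 4.3.3). Genes passed filterByExpr at its settings of 10 counts and a total of 15, which kept 12827 genes. Groups were compared by the quasi-likelihood test without covariates, adjusted by Benjamini-Hochberg over all tested genes (threshold 0.05). The biological coefficient of variation was 0.0688. SE is the log2 fold change divided by the square root of F, and 95% intervals use the t quantile. The fit was tested on simulated data. DESeq2 1.42.0 and limma 3.58.1 on log2(FPKM + 1) served as alternatives, with other normalisations, filters, a replicate block and each library left out. All replicate pairs differed by more than counting noise (chi-square per degree of freedom 2.68 to 26.1). Depth was 23849656 to 26897086 counts per library.

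Members and lists were chosen with earlier results of these data known. Members were named if they were among the 2 highest by FPKM or the 3 smallest p of their class, had an unadjusted p under 0.05, groups without overlap or a call with a library left out, fell under the filter, or were the most or least abundant paralog of a family. Srsf1, Srpk2, Mbnl1, Qk, Rbm20, Hnrnpa3 and the Clk ratios were named beyond this rule. Coordinates, exons and transcript classes are from GENCODE M21 (GRCm38), in which all 59 members were found. Figures were drawn with matplotlib 3.10.9.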

Additional observations from a re-analysis of the deposited data

How the results depend on the processing

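Among 15 alternatives, those that leave out a library, above all HSPA1A replicate 2, or use another scale changed the counts or medians of the members, and the cause was not tested. With each library left out in turn, members called ran from 0 to 4 higher and from 0 to 1 lower, and members at an unadjusted p under 0.05 from 2 to 19. The members' median log2 fold change was -0.036 with library totals alone, -0.055 on log2(FPKM + 1), also with a mean FPKM of at least 1, and -0.058 on log2(FPKM + 0.1). Over all tested genes the medians in these fits were -0.033, -0.041, -0.049 and -0.055 in the same order. Most of the members' shift was therefore shared by all genes. Signs of near-level members turned. Mbnl2 was at -0.0023, -0.0024 and -0.0023 in the 3 FPKM fits. Srsf5 was at -0.0138 with library totals, -0.0369, -0.0373 and -0.0369 in the FPKM fits, and from -0.0018 (without HSPA1A replicate 2) to 0.0647 with each library left out. Hnrnpab was at -0.0229 with library totals, -0.0452, -0.0453 and -0.0452 in the FPKM fits, -0.0070 without HSPA1A replicate 1, and from -0.0111 (without HSPA1A replicate 3) to 0.0630 with each library left out.

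Over all genes, those called higher numbered 1 with DESeq2-type size factors, with library totals or at 5 CPM in 3 libraries, 26 with DESeq2, 94 with no filter on low counts, 0 in the FPKM fits and 0 to 683 with a library left out. Those called lower numbered 38 with DESeq2, 111 with no filter, 13 with the replicate block and 10 to 640 with a library left out. At an unadjusted p under 0.05 there were 1679 with no filter and 649 to 3211 with a library left out. The replicate block called 0 members, with 3 at an unadjusted p under 0.05 and 16 genes in all. Deviations of same-numbered libraries correlated at -0.10, -0.0015 and 0.085, and those of differently numbered libraries at -0.0896 to 0.0909. With 3 libraries a group, these values cannot decide whether same-numbered libraries were handled together.

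Core spliceosome genes at an unadjusted p under 0.05 numbered 4 with the replicate block and 2 to 28 with a library left out, with 0 to 11 called higher. Their median was -0.0182, -0.0189 and -0.0182 in the FPKM fits. The median over all tested genes was lower in those fits, at -0.041, -0.055 and -0.049. Further regulators at an unadjusted p under 0.05 numbered 5 with DESeq2 and 4 to 19 with a library left out, with 0 to 6 called higher and 0 to 2 lower. The further regulators' median was -0.0344 with library totals, where that of all tested genes was -0.033. In the FPKM fits it was -0.0498, -0.0566 and -0.0496, beside the medians of all tested genes given above. With 3 libraries a group, differences smaller than the intervals given above were not detectable, and gene counts do not measure exon inclusion.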

Other observations

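Promoter letters were compared as a description. RefSeq promoters on GRCm38.p6, from 250 bases before to 50 after each start, were found for 50 of the 59 members, 81 promoters in all, and set beside 32851 promoters of all genes, with both strands searched. The GC box GGGCGG stood in 69.1% of the members' promoters and in 35.7% of all promoters. CCAAT stood in 44.4% of the members' promoters and 37.4% of all, and the ETS core CCGGAA in 24.7% of the members' promoters and 14.9% of all. TATAAA stood in 12.3% of the members' promoters and 13.6% of all. The heat shock element pair TTCNNGAA stood in 3 of the members' promoters, or 3.70%, and in 8.52% of all promoters. Promoters of the same gene can overlap, and the promoters of all genes include genes not expressed in these cells.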
